A study of Homo sapiens with 12 samples.

Results

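The FOXO and insulin signalling genes described here are 10 genes, taken by symbol from the 60612 gene rows of the count table. They are the transcription factors FOXO1 and FOXO3, the insulin receptor INSR, its substrates IRS1 and IRS2, the phosphoinositide 3-kinase (PI3K) inhibitor PIK3IP1, and the FOXO target genes DEPP1, CCNG2, BCL6 and IGFBP1. All 10 had 1 row each, 9 had counts in every library, and IRS2 was listed at 0 in all 12. RNA was sequenced from HepG2, an established human liver cancer line that keeps many hepatocyte functions. Cells were harvested untreated (0 min) or after 10, 30 or 360 min with 0.001 µM 2,4-D, a synthetic auxin herbicide, in 3 biological replicates per time. No untreated cells harvested at 10, 30 or 360 min were analysed here, so exposure and elapsed time cannot be told apart in any difference from 0 min. The insulin and serum content of the medium is not given in the sources used here.

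In hepatocytes, insulin binds INSR, the receptor phosphorylates the IRS proteins, and these recruit PI3K, which activates the kinase AKT. AKT phosphorylates FOXO1 and FOXO3 and keeps them out of the nucleus, so FOXO target genes are transcribed when insulin signalling is low. This control acts on the FOXO proteins, which RNA counts do not measure. The target genes named here also answer to other factors, such as p53, hypoxia-inducible factors and glucocorticoids.

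The 10 genes were chosen by symbol, from a proposal made with their levels and fold changes in these same comparisons in view. Their values are therefore given as a description, without p-values, and whether a gene was among those called over the whole table carries no independent weight. A call means that edgeR's quasi-likelihood test gave an adjusted p (Benjamini-Hochberg) below 0.05 over the 17779 genes that passed the filter on low counts. The filter kept 9 of the 10, and IRS2 was removed by it. Levels are CPM, counts scaled to a common library total with TMM factors. Errors of levels are SDs over 3 libraries, and errors of log2 fold changes are standard errors (SE).

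The libraries held 29766148 to 83539763 counts, and the 10 min libraries were the shallowest group at 29766148 to 31528822 counts. All 10 hepatocyte markers were above 1 CPM on average, and their summed level was 29381 to 33283 CPM over the 12 libraries. Of other cell types, 1 of 5 fibroblast, 2 of 5 leukocyte and 1 of 4 endothelial markers averaged 1 CPM or more, with COL1A2, PTPRC and KDR listed at 0 in every library. Their summed levels were 1.91 to 3.73 CPM (fibroblast), 1717 to 1938 CPM (leukocyte, nearly all of it LYZ) and 1.29 to 2.20 CPM (endothelial), and their part in the results was not tested. The mitochondrial share of counts was 3.55% to 4.39% in 7 libraries, all 10 min libraries among them, and 2.52% to 2.74% in the other 5. In bulk RNA, fewer cells of a type and less RNA per cell cannot be told apart.

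FOXO proteins bind DNA around a short core, searched here as GTAAACA and as ATAAACA, and a related insulin response core was searched as CAAAACA, each on both strands. RefSeq promoter windows, from 250 bases before to 50 after a gene's start on GRCh38.p14, were matched for 9 of the 10 genes and gave 14 windows. GTAAACA was present in 3.42% of all 35116 windows in the table, ATAAACA in 4.24% and CAAAACA in 4.92%. The 14 windows held 4 matches: GTAAACA in 2 windows (DEPP1 and PIK3IP1), ATAAACA in 1 (FOXO3) and CAAAACA in 1 (IRS2). The share of all windows with any of the 3 motifs was not computed, so the 4 together have no background here. The matches are printed with 10 bases on either side, in the direction of the gene, with the motif or its reverse complement in capitals.

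DEPP1: gccctgcagcGTAAACAttccccagcc
PIK3IP1: aaagagaggcTGTTTACcagaacagca
FOXO3: cgagcgaaacATAAACAaacgcacgca
IRS2: agtcacatgtTGTTTTGctcttcttag

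The printed DEPP1 bases lie at chr10:44978973-44978999 on the minus strand, and their first motif base is at position -180 from the gene's start. The printed FOXO3 bases (chr6:108560673-108560699, plus strand) belong to 1 of 4 windows of that gene, with 1 for each listed start site. In the printed PIK3IP1 bases (chr22:31292456-31292482, minus strand), the motif begins at base 17 after 1 of the gene's 2 starts. In the printed IRS2 bases (chr13:109786607-109786633, minus strand), the motif begins at position -40. DEPP1 had the widest range of the 10 genes over time, so the 250 bases before its start are shown whole (chr10:44978810-44979059, minus strand), with the motif in capitals.

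DEPP1: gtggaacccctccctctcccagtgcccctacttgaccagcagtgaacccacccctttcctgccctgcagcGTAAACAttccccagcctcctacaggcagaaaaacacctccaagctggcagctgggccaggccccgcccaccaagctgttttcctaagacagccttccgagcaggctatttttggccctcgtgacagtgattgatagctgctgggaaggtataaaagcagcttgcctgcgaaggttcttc

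A letter match is a description of the window and not evidence of binding, and these windows exclude more distant elements. The windows of FOXO1, INSR, IRS1, CCNG2 and BCL6 held none of the 3 motifs.

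The 2 FOXO genes held nearly the same level through the course. FOXO1 (chromosome 13, 40469953 to 40666597, minus strand, GENCODE 29 on GRCh38) stood at 17, 17.2 and 16.9 CPM at 0 min, 17.6, 18.3 and 18.1 CPM at 10 min, 15.9, 17.7 and 16.4 CPM at 30 min, and 15.0, 16.4 and 16.3 CPM at 360 min. Its 10 min libraries lay just above all 0 min libraries and its 360 min libraries just below them. The log2 fold change against 0 min came to 0.08, -0.03 and -0.10 after 10, 30 and 360 min (SE 0.06 for each), with a 95% interval of -0.23 to 0.02 at 360 min.

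FOXO3 (chromosome 6, 108559835 to 108684774, plus strand) stood at 31.5, 34.8 and 34.3 CPM at 0 min, 33.8, 31.8 and 32.1 CPM at 10 min, 35.4, 33.5 and 34.5 CPM at 30 min, and 34.9, 33.1 and 33.1 CPM at 360 min. The libraries of each exposure time overlapped those at 0 min. Its log2 fold changes were -0.04, 0.04 and 0.01 at 10, 30 and 360 min (SE 0.05 for each), and the interval at 360 min was -0.09 to 0.11. Neither gene was called in any of the 5 comparisons made.

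The insulin receptor and its measured substrate also moved little. INSR (chromosome 19, 7112255 to 7294034, minus strand) stood at 71.4, 75.5 and 73.5 CPM at 0 min, 76.0, 76.2 and 81.9 CPM at 10 min, 74.2, 68.5 and 71.5 CPM at 30 min, and 77.6, 76.7 and 83.4 CPM at 360 min. The 10 min and 360 min libraries lay above all 0 min libraries, while those at 30 min overlapped them. INSR was not called against 0 min at any time, with a log2 fold change of 0.11 at 360 min (95% interval 0.01 to 0.20). Against 30 min, the 360 min libraries were higher by 0.15 (SE 0.04) and INSR was called, a call lost under 4 of 15 alternatives.

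IRS1 (chromosome 2, 226731317 to 226799759, minus strand), an adaptor that links the receptor to PI3K, stood at 43.9, 48.0 and 45.2 CPM at 0 min, 51.3, 51.6 and 45.9 CPM at 10 min, 46.7, 49.5 and 47.9 CPM at 30 min, and 43.4, 40.9 and 44.6 CPM at 360 min. The libraries overlapped those at 0 min at every time. Its log2 fold changes against 0 min were 0.12, 0.07 and -0.09 at 10, 30 and 360 min (SE 0.05 for each). Between 360 min and 30 min it was at -0.16 ± 0.05 and called, but 9 of 15 alternatives, among them the omission of any of the 6 libraries, ended that call.

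IRS2 (chromosome 13, 109752698 to 109786568, minus strand), the other main hepatic substrate, had a count of 0 in each of the 12 libraries. At these depths 3 counts correspond to 0.0359 to 0.101 CPM per library, a limit that covers counting error only. The antisense gene AL162497.1, which shares 115 exon bases with IRS2, was listed at 0 as well. Of 19874 protein-coding rows, 3418 were at 0 in all libraries. How reads were assigned to genes is not given in the sources used here, so whether the IRS2 row reflects the RNA or the counting was not tested. No fold change is given for it.

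PIK3IP1 (chromosome 22, 31281593 to 31292534, minus strand), a membrane protein that binds PI3K and lowers its activity, had 50 to 163 counts per library, the fewest of the 9 genes with counts. Its level was 1.79, 1.66 and 1.63 CPM at 0 min, 1.70, 1.65 and 2.44 CPM at 10 min, 1.92, 1.52 and 1.96 CPM at 30 min, and 1.30, 1.72 and 1.18 CPM at 360 min. The libraries of every exposure time overlapped those at 0 min. A counting error of 14.1% applied to the smallest count, and the 95% interval of the log2 fold change at 360 min ran from -0.70 to 0.12. The value of DEPP1 at that time, given next, lies inside this interval. The 10 min mean rested on replicate 3: without it, the log2 fold change of 0.19 at 10 min was -0.01.

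**Figure D1:**
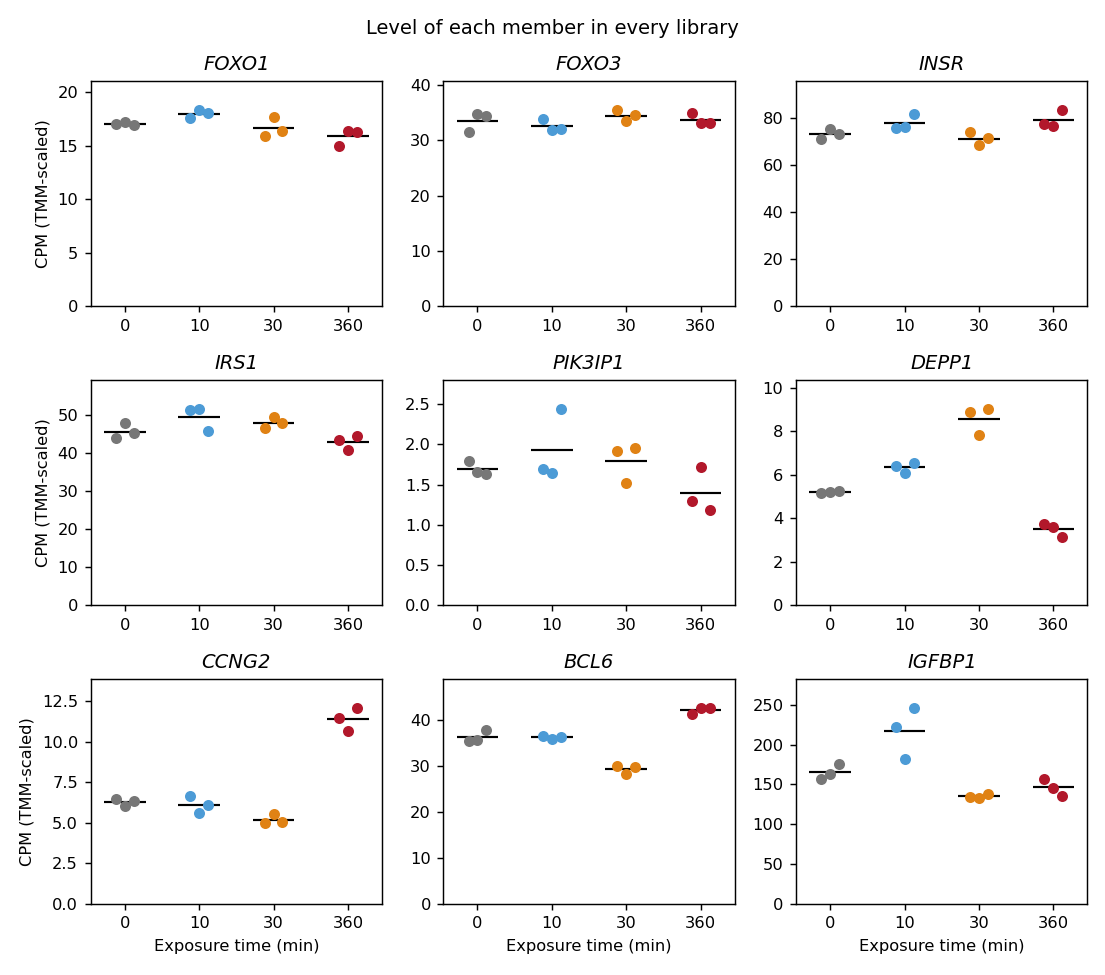
Level of the 9 genes with counts in each library (CPM, TMM-scaled, linear axes from 0) against exposure time. Points are the 3 libraries of a time and lines their mean; DEPP1 is highest at 30 min, CCNG2 and BCL6 are highest at 360 min, and IGFBP1 is highest at 10 min.

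The 4 FOXO target genes did not share one course: mean levels were highest at 30 min for DEPP1 and at 10 min for IGFBP1, while CCNG2 and BCL6 were both lowest at 30 min and highest at 360 min. DEPP1 (chromosome 10, 44970981 to 44978810, minus strand), a gene induced by FOXO factors whose product affects autophagy and peroxisomes, stood at 5.14, 5.19 and 5.24 CPM at 0 min. It stood at 6.41, 6.08 and 6.52 CPM at 10 min, 8.88, 7.81 and 9.01 CPM at 30 min, and 3.75, 3.61 and 3.11 CPM at 360 min. The 4 groups of libraries did not overlap: each 10 min library lay above each at 0 min, each 30 min library above each at 10 min, and each 360 min library below all others.

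Set against 0 min, the log2 fold change of DEPP1 (± SE) reached 0.29 ± 0.10 after 10 min, 0.72 ± 0.09 after 30 min and -0.57 ± 0.10 after 360 min. It was among the called genes at 30 and 360 min and not at 10 min. Between 360 min and 30 min the difference was -1.30 ± 0.10, from means of 3.49 and 8.57 CPM. Against replicate 1 as the lone untreated library the 30 min value was 0.74 and was not called.

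RASSF4 lies on the opposite strand and shares 695 exon bases with DEPP1, and without strand their reads in that stretch cannot be told apart. RASSF4 averaged 78.2 ± 1.7 CPM at 0 min, 77.1 ± 2.9 at 10 min, 79.1 ± 2.7 at 30 min and 63.4 ± 2.6 at 360 min. Its log2 fold change against 0 min was 0.02 ± 0.04 at 30 min (SE), where DEPP1 was higher. At 360 min both genes were lower, RASSF4 by 0.30 on the log2 scale, and the part of shared reads in the DEPP1 value was not tested.

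CCNG2 (chromosome 4, 77157151 to 77433388, plus strand) encodes cyclin G2, an unconventional cyclin that slows the cell cycle and is a classic FOXO target. It stood at 6.46, 6.07 and 6.33 CPM at 0 min, 6.64, 5.61 and 6.10 CPM at 10 min, 4.99, 5.55 and 5.03 CPM at 30 min, and 11.5, 10.7 and 12.1 CPM at 360 min. The lowest 360 min library was above the highest of all other times, while the 30 min libraries lay below all at 0 min. Its log2 fold change was -0.27 ± 0.09 at 30 min (SE), which was not called, and 0.86 ± 0.09 at 360 min, which was. Against 30 min, the 360 min libraries were higher by 1.14 ± 0.09 on the log2 scale.

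BCL6 (chromosome 3, 187721377 to 187745727, minus strand), a transcriptional repressor that is itself a FOXO target, stood at 35.4, 35.6 and 37.9 CPM at 0 min and at 36.6, 35.9 and 36.3 CPM at 10 min. It then stood at 30.0, 28.3 and 29.9 CPM at 30 min and 41.3, 42.7 and 42.7 CPM at 360 min. The 30 min libraries lay below and the 360 min libraries above all libraries at 0 and 10 min, which overlapped each other. Against 0 min BCL6 fell by 0.30 (SE 0.04) at 30 min and rose by 0.22 ± 0.04 at 360 min, with a difference of 0.00 ± 0.04 at 10 min. BCL6 was also called lower at 30 min than at 10 min (-0.30 ± 0.04) and higher at 360 min than at 30 min (0.52 ± 0.04). The 30 min call against 0 min was lost with replicate 1 as the lone untreated library, where the value was -0.26.

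IGFBP1 (chromosome 7, 45888357 to 45893668, plus strand) encodes a secreted binding protein of insulin-like growth factors whose transcription insulin represses. It stood at 157, 163 and 176 CPM at 0 min, 222, 182 and 246 CPM at 10 min, 134, 133 and 138 CPM at 30 min, and 157, 146 and 136 CPM at 360 min. All 10 min libraries lay above those of the other times, with replicate 2 nearest to them, and all 30 min libraries lay below those at 0 min. The log2 fold changes against 0 min were 0.39, -0.30 and -0.18 at 10, 30 and 360 min (SE 0.09 for each), and none was called. DESeq2 called the 10 min difference, as did edgeR without 10 min replicate 2, at 0.50. All 10 min libraries had the higher mitochondrial share, and with a term for it the 10 min value was 0.44. With only the 30 and 0 min libraries in the fit, the 30 min value of -0.30 was called. Between 30 min and 10 min the difference was -0.69 ± 0.09, from means of 135 and 217 CPM, and IGFBP1 was called in that comparison and under all 15 alternatives.

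**Figure D2:**
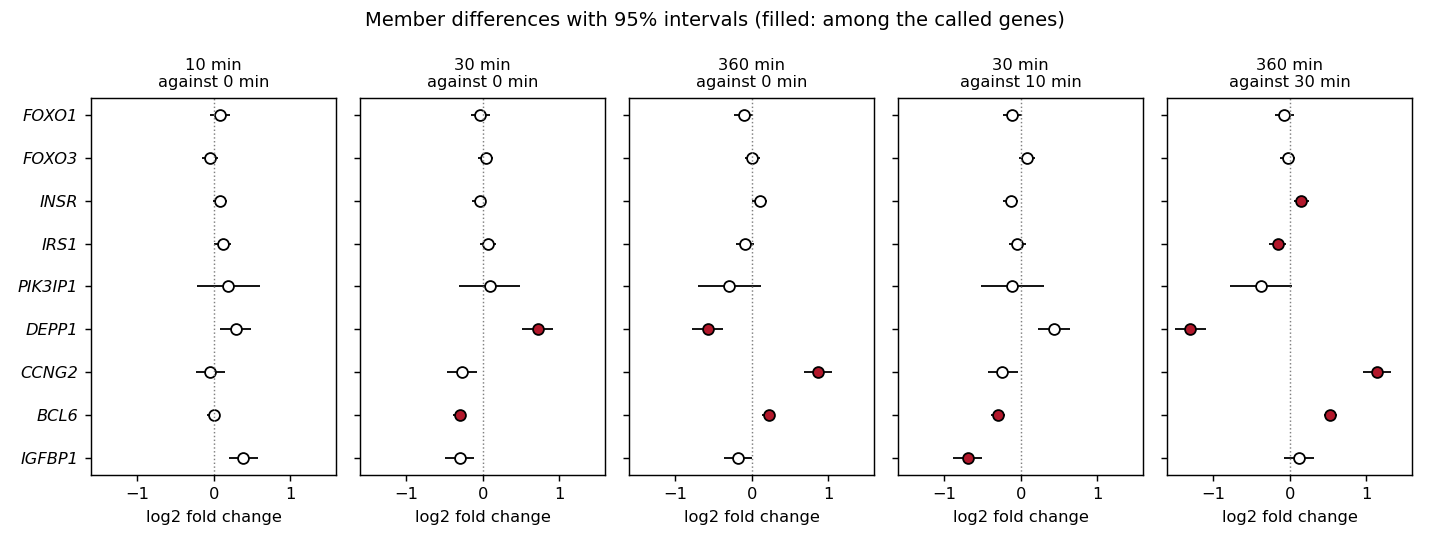
Log2 fold change of each gene with its 95% interval in 5 comparisons, the first-named time over the second; filled points were among the genes called over the whole table. DEPP1 is at 0.72 at 30 min and -0.57 at 360 min against 0 min, CCNG2 at 0.86 at 360 min, and the FOXO genes lie within 0.11 of 0 in every panel.

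At 10 min 0 of the 9 measured genes were called by edgeR, where 3 of 17779 genes were (0.0169%). An unadjusted p under 0.05 was found for 3 of the 9 (10.9% of all genes). DESeq2 called 1 of the 9, where it called 174 of 17779 genes, and limma voom called 0, where it called 3. At 30 min 2 of 9 were called, DEPP1 higher and BCL6 lower, against 0.765% of all genes. At 360 min 3 of 9 were called, CCNG2 and BCL6 higher and DEPP1 lower, against 18.1% of all genes. Between 30 and 10 min 2 of 9 were called, both lower (0.574% of all genes), and between 360 and 30 min 5 of 9 (22.7% of all genes), of which INSR, CCNG2 and BCL6 were higher and DEPP1 and IRS1 lower. Libraries did not overlap those at 0 min for 4 of the 9 at 10 min (15.5% of all genes), 4 at 30 min (14.5%) and 6 at 360 min (35.6%). The median log2 fold change of the 9 was 0.09, -0.03 and -0.09 at 10, 30 and 360 min against 0 min, beside medians of -0.003, 0.003 and 0.001 over all genes. The 3 comparisons with 0 min share the untreated libraries, and since the genes were proposed from such results, nothing is read from these shares.

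Per exon length, as TPM (counts per base of exon, scaled to a common total), IGFBP1 had the highest level at 0 min with 267 ± 24.1 TPM. BCL6 followed at 23.9 ± 1.61 TPM and INSR at 21.5 ± 1.29 TPM, with overlapping libraries. IRS1 at 12.6 ± 0.928 TPM and FOXO3 at 11.6 ± 1.01 TPM overlapped as well. Below them, FOXO1 (7.92 ± 0.3 TPM), DEPP1 (6.53 ± 0.292 TPM), CCNG2 (2.66 ± 0.073 TPM) and PIK3IP1 (1.64 ± 0.024 TPM) did not overlap their neighbours. DEPP1 reached 10.7 ± 1.01 TPM at 30 min, above FOXO1 at that time (7.71 ± 0.261 TPM). At 360 min DEPP1 was at 4.41 ± 0.53 TPM and CCNG2 at 4.85 ± 0.159 TPM, and their libraries overlapped.

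**Figure D3:**
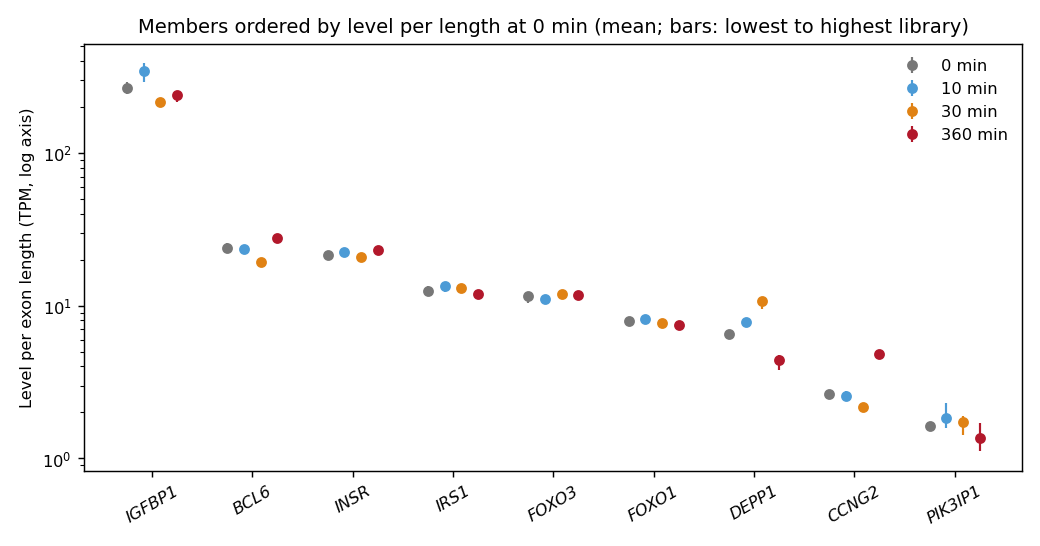
Level per exon length (TPM, log axis) of the 9 genes at 0, 10, 30 and 360 min, ordered by the mean at 0 min; points are means and bars run from the lowest to the highest of 3 libraries. IGFBP1 lies far above the next gene at every time, and the ranges of DEPP1 and CCNG2 overlap at 360 min.

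For the 4 genes with the widest range of group means, the genes with the most similar course were sought by the root mean square difference of centred log2 CPM over the 12 libraries, among 12435 genes whose mean log2 CPM was 1 or more. For DEPP1 these were PIM1 (0.147), KLF11 (0.153) and SGK1 (0.172), where the median gene was at 0.487. PIM1 had log2 fold changes of 0.27, 0.56 and -0.48 against 0 min at 10, 30 and 360 min. For CCNG2 they were NECTIN4 (0.128), BTG2 (0.132) and BIRC3 (0.137), with a median of 0.443. For IGFBP1 they were EGLN3 (0.098), VEGFA (0.123) and NDRG1 (0.128), with a median of 0.296. For BCL6, FOXA2 lay nearest at 0.037, followed by BMP4 (0.056) and TMEM39A (0.063), with a median of 0.209. The spread of each gene within its own groups was 0.077 for DEPP1, 0.072 for CCNG2, 0.106 for IGFBP1 and 0.033 for BCL6. EGLN3 thus lay below the spread of IGFBP1, and FOXA2 just above that of BCL6. FOXA2 had log2 fold changes of -0.05, -0.28 and 0.25 against 0 min in the same order of times.

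The other genes of the pathway were taken from 6 lists with 104 genes in the table, of which 96 passed the filter. Their adjusted p-values come from the same edgeR test. The lists were chosen with earlier results of these data known, so these p-values and shares are a description and carry no independent weight. At 10 min 1 of 96 was called higher (0.0112% of all genes) and 0 lower (0.00562%). At 30 min 1 was higher (0.18%) and 4 were lower (0.585%), and at 360 min 11 were higher (8.89%) and 17 lower (9.19%). The median log2 fold change of the 96 was 0.03, 0.00 and 0.01 in the same order. All edgeR calls at 10 and 30 min were in the list of other FOXO target genes. DESeq2 called 6 of the 96 at each of these times, where it called 174 and 271 of all 17779 genes.

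In that list of FOXO targets, 25 of 29 genes were measured. TXNIP, which limits glucose uptake, averaged 79.0 CPM at 10 min and 83.7 CPM at 30 min, against 57.0 CPM at 0 min, and was called at both times (adjusted p = 0.0053 and 9.7e-05). With 43.4 CPM at 360 min it fell below 0 min (-0.39 ± 0.05, adjusted p = 0.00014), so that its direction at 30 and 360 min was that of DEPP1. The other 4 calls at 30 min were lower. CITED2, a transcriptional coregulator, stood at 12.1, 12.1 and 12.0 CPM at 30 min, against 19.7, 23.0 and 26.8 CPM at 0 min (-0.94 ± 0.11, adjusted p = 0.00082).

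TRIB1, a pseudokinase gene, stood at 37.4, 41.5 and 42.5 CPM at 30 min, against 54.5, 56.6 and 62.7 CPM at 0 min (-0.52 ± 0.07, adjusted p = 0.0023). KLF6, a zinc finger factor, stood at 53.7, 55.1 and 50.1 CPM at 30 min, against 64.2, 93.9 and 106 CPM at 0 min (-0.74 ± 0.13, adjusted p = 0.014), and 0 min replicate 1 lay far below its fellows. PCK1, the rate-limiting enzyme of gluconeogenesis and a gene that insulin represses, stood at 20, 19.0 and 18.9 CPM at 30 min, against 23.0, 24.9 and 26.2 CPM at 0 min (-0.36 ± 0.06, adjusted p = 0.015). Its libraries did not overlap, and neither did those of the other 4 genes called. The call of TXNIP at 10 min was lost with replicate 1 as the lone untreated library (0.40, adjusted p = 0.062). The call of KLF6 was lost under 7 of 16 alternatives and that of PCK1 under 6, with adjusted p up to 0.12 and 0.39. With replicate 1 as the lone untreated library KLF6 was at -0.27 and TRIB1 at -0.43, and neither was called.

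At 360 min 3 of the 25 FOXO targets rose and 7 fell, a share of 40% called beside 18.1% of all genes. CDKN1B, the inhibitor p27 of cyclin-dependent kinases, stood at 56.1, 52.8 and 55.9 CPM at 360 min, against 38.5, 42.0 and 40.9 CPM at 0 min (0.44 ± 0.04, adjusted p = 2.8e-05). ERBB3, a growth factor receptor that FOXO factors induce, stood at 268, 261 and 268 CPM at 360 min, against 343, 350 and 325 CPM at 0 min (-0.35 ± 0.03, adjusted p = 3e-05). KLF6 averaged 47.2 CPM at 360 min and 88.2 CPM at 0 min (-0.90 ± 0.13, adjusted p = 0.00035). With replicate 1 as the lone untreated library this value was -0.44, and it was called under all 16 alternatives. The median of the list was -0.08, beside 0.001 over all genes.

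**Figure D4:**
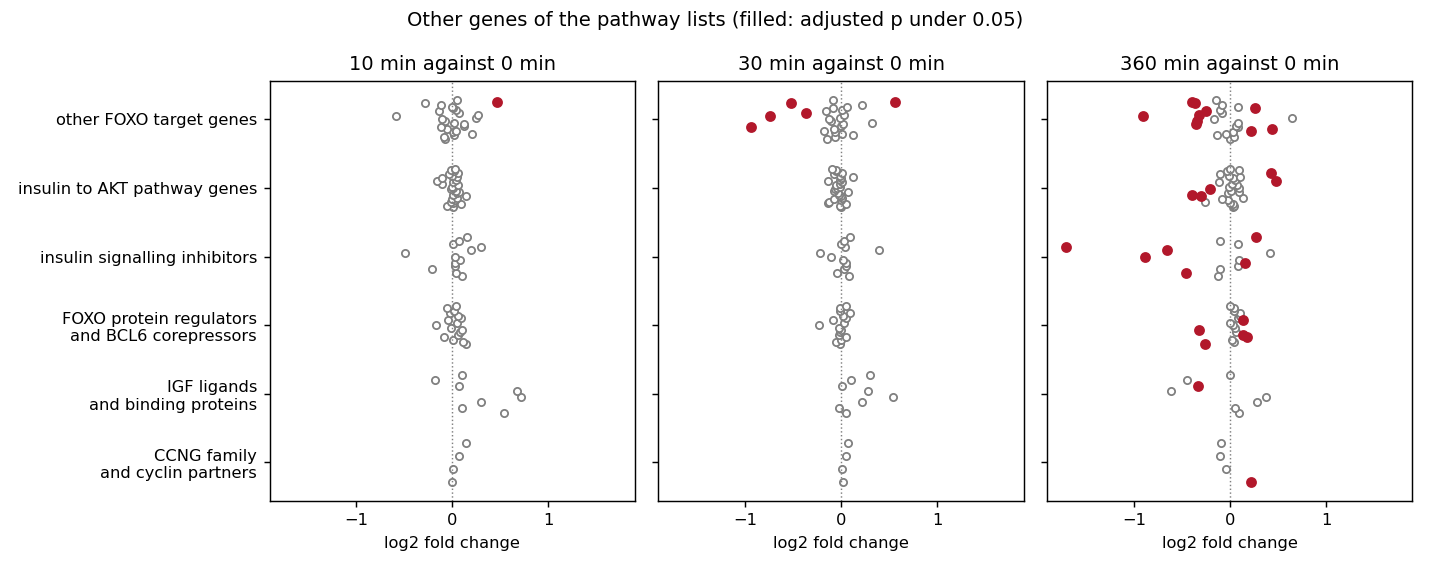
Log2 fold change of the 96 measured genes of the 6 pathway lists at 10, 30 and 360 min against 0 min; filled points passed the adjusted threshold of 0.05 over all genes. Filled points at 10 and 30 min lie only in the FOXO target row, and at 360 min they lie on both sides of 0 in 4 of the 6 rows.

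The list of insulin to AKT pathway genes also runs past AKT, to genes such as MTOR and FOXO4. Of its 31 genes, 29 were measured, and 0 were called by edgeR at 10 or 30 min. An unadjusted p under 0.05 was found for 1 and 3 of them, beside 10.9% and 9.29% of all genes. At 360 min 2 rose and 3 fell, a share of 17.2% beside 18.1% of all genes. INPPL1, a phosphatase that removes a product of PI3K, stood at 61.4, 60.9 and 62.7 CPM at 360 min, against 83.4, 77.9 and 80.9 CPM at 0 min (-0.39 ± 0.04, adjusted p = 3.3e-05). IGF1R, the receptor of insulin-like growth factor 1, stood at 112, 105 and 114 CPM at 360 min, against 132, 139 and 135 CPM at 0 min (-0.30 ± 0.04, adjusted p = 0.00061). SOS1, which activates RAS below the receptor, was higher by 0.43 ± 0.04 (adjusted p = 3.9e-05), and the PI3K regulatory subunit gene PIK3R3 by 0.48 ± 0.09 (adjusted p = 0.0025).

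A list of 13 genes holds inhibitors of insulin signalling together with the adaptors SH2B1 and SH2B2, which are known mainly to enhance receptor signalling. Of these, 2 rose and 4 fell at 360 min, a share of 46.2% beside 18.1% of all genes. At 10 and 30 min 0 were called by edgeR, and 5 and 1 had an unadjusted p under 0.05, beside 10.9% and 9.29% of all genes. SOCS3, which blocks IRS signalling, stood at 0.277, 0.296 and 0.271 CPM at 360 min, against 0.830, 0.895 and 1.03 CPM at 0 min (-1.71 ± 0.18, adjusted p = 5e-05), from 10 to 19 counts per library at 360 min. GRB10, an adaptor that restrains the receptor, averaged 7.17 CPM at 360 min and 9.85 CPM at 0 min (-0.46 ± 0.09, adjusted p = 0.005). SH2B2 was also lower (-0.88 ± 0.20, adjusted p = 0.0088), while the phosphatase gene PTPN2 was higher by 0.16 ± 0.04 (adjusted p = 0.011). With replicate 1 as the lone untreated library GRB10, SH2B2 and PTPN2 were not called (adjusted p = 0.088, 0.11 and 0.073).

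Among 17 regulators of FOXO proteins and corepressors that work with BCL6, 3 rose and 2 fell at 360 min, a share of 29.4% beside 18.1% of all genes. At 10 or 30 min 0 were called by edgeR (4 and 2 at an unadjusted p under 0.05, beside 10.9% and 9.29% of all genes). BCOR, a corepressor that binds BCL6, averaged 61.1 CPM at 360 min and 73.2 CPM at 0 min (-0.26 ± 0.05, adjusted p = 0.0022). With replicate 1 as the lone untreated library BCOR was not called (adjusted p = 0.068). SKP2, whose product marks FOXO1 for degradation, rose by 0.14 ± 0.03 (adjusted p = 0.0072).

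In the list of IGF ligands and binding proteins, 8 of 10 genes were measured. Against 0 min 1 was called, at 360 min, a share of 12.5% beside 18.1% of all genes. This was IGFBP4, with 26.6 CPM at 360 min and 33.5 CPM at 0 min (-0.33 ± 0.04, adjusted p = 0.00016). IGF2, a fetal growth factor gene with high counts in these cells, averaged 2720 CPM at 10 min and 1880 CPM at 0 min, and its 10 min libraries lay above all untreated ones. That difference of 0.54 ± 0.15 did not pass (adjusted p = 0.22), and the libraries of the 2 groups do not overlap in 15.5% of all genes. IGFBP2, at 1.06 CPM or less in every library, was at 0.72 ± 0.21 at 10 min (adjusted p = 0.23). The relative of CCNG2, CCNG1, was higher at 360 min by 0.22 ± 0.04 (adjusted p = 0.0013). It alone of the 4 genes in its list was called against 0 min, a share of 25% at 360 min beside 18.1% of all genes.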

How the data were processed

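The authors' deposited table gives whole-number counts of reads for each gene in 12 libraries. The submitters' processing notes name HISAT2, DESeq2 and GRCh38, but the sources used here do not state versions, roles, the counting program or strandedness. Of 60612 gene identifiers, 58394 (96.34%) were found in GENCODE 29, the source of coordinates and exon lengths. Counts were filtered (filterByExpr, 17779 genes kept), scaled by TMM (factors 0.981 to 1.014) and tested with edgeR 4.0.16 in R 4.3.3, with 1 coefficient per time over all 12 libraries and 8 residual degrees of freedom. SE is the absolute log2 fold change divided by the square root of F. TPM were computed from the counts and exon lengths. Tests are two-sided.

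Genes eligible to be named from the pathway lists were the 4 with the smallest p per list in each comparison with 0 min, plus those called at 10 or 30 min. The values of 1 eligible gene are not reported here. The members and lists were chosen with earlier results of these data known. Alternatives were DESeq2 1.42.0, limma 3.58.1 (voom), RLE factors, scaling by totals, no count filter, a filter at 1 CPM in 3 libraries with 100 counts in all, a fit of only the 2 groups, a replicate block, thresholds of 0.01 and 0.1, and omission of each library. A mitochondrial-share term (above or below 3%) and a fit with replicate 1 as the lone untreated library were chosen after seeing the data. The test was also run on counts simulated from the spread of its own fit, and no result of that run is used here.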

Additional observations from a re-analysis of the deposited data

How the results depend on the processing

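At 10 min against 0 min the 3 calls were 174 with DESeq2, 9 without a filter, 7 with the 2 groups alone, 6 with the replicate block, and 1 and 5 at thresholds of 0.01 and 0.1. At 30 min the 136 calls were 271 with DESeq2, 67 with the 2 groups alone, 62 and 210 at the other thresholds. At 360 min 3215 became 1718 at 0.01. Between 30 and 10 min 102 became 290 with DESeq2, and 37 and 214 at the other thresholds; between 360 and 30 min 4034 became 2256 at 0.01. Against replicate 1 alone, the counts at 10, 30 and 360 min were 10, 52 and 1751. Leaving out 0 min replicate 1 gave 25 calls at 10 min, leaving out 10 min replicate 2 gave 13, and leaving out 0 min replicate 3 gave 61 at 30 min. Omission of 1 library gave 1 to 25, 61 to 163 and 2281 to 2714 calls at 10, 30 and 360 min, 39 to 83 between 30 and 10 min, and 3024 to 3481 between 360 and 30 min.

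The 9 measured genes gave 3 calls at 360 min under all alternatives run. At 30 min they gave 2, except 3 with the 2 groups alone and 0 against replicate 1 alone. At 10 min there was 1 call, IGFBP1, with DESeq2; omissions gave 0 to 1. No called value of theirs changed sign. Pathway calls were 6 with DESeq2 at 10 min (1 to 2 over omissions), 3 with the 2 groups alone or at 0.01 at 30 min (3 to 6 over omissions), and 18 at 0.01 at 360 min (21 to 24 over omissions). Against replicate 1 alone they were 0, 2 and 16. The cause of these changes was not tested.

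Deviations of same-numbered libraries correlated at -0.054 to 0.099 over 18 pairs, with a median of 0.028. Those of differently numbered libraries correlated at -0.115 to 0.092 over 36 pairs, with a median of -0.019. These values do not settle whether replicate numbers pair the libraries, and the main fit used no pairing. The replicate block ended the call of IRS1 between 360 and 30 min. For the pathway genes at 360 min the block gave 13 higher and 16 lower calls, beside 11 and 17 without it. Of the 9 genes with counts, depth limits PIK3IP1 most, at 50 counts in its smallest library. IRS2 was at 0 in every library, and whether depth had a part in this was not tested.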
